A study of Mus musculus with 12 samples.

Results

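Gene expression was compared between skin-derived precursor (SKP) spheres from wounded skin treated with trimebutine maleate (3 arrays) and SKP spheres from uninjured skin treated with vehicle (3 arrays). These 6 arrays are part of a set of 12, and the comparison covers 13153 genes out of 22180 that a probe set with a single gene symbol names. Genes entered the test when at least 3 of the 12 arrays showed them brighter than the median of the array. The other arrays hold SKPs of wounded skin given vehicle (3 arrays) or alprostadil, which is prostaglandin E1 (3 arrays). All animals were mice aged 9 months of a strain that the labels spell CD57/Bl6, and no transgene or deletion is named for any group. Each group is 3 independent isolates per the series' design text. The text does not say whether an isolate was 1 animal or a pool. Per the labels' protocols, every group was cultured at a density of 50000 cells in each ml of medium that held 2% B27, 20 ng/ml EGF and 40 ng/ml FGF2, and the spheres analysed were secondary ones. No source used here gives the drug dose, the time after wounding or the site of the skin. Injury and trimebutine therefore differ together between the groups, and their separate parts cannot be told apart in this comparison alone.

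SKPs are dermal cells that grow as floating spheres in FGF2 and EGF and can take part in the dermis and in the inductive tissue of the hair follicle, the dermal papilla. Skin repair needs such cells to divide, to lay down and remodel collagen, and to exchange signals with immune cells and epidermis. Trimebutine is used against disorders of gut motility, and acts at opioid receptors and ion channels. The title of the series states that drugs which enhance skin repair were sought through screens on dermal stem cells.

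The spheres carried a dermal fibroblast profile. All 12 fibroblast markers on the list lay above the array median on all 6 arrays, and their mean level was 11.92 to 12.11 log2 units on the uninjured arrays and 11.93 to 11.96 on the trimebutine arrays. Among these markers the surface protein gene Thy1 read 9.68 to 10.27 in uninjured and 8.98 to 9.25 in trimebutine spheres, without passing (adjusted p = 0.645). Nes (nestin), an SKP marker, was low at 6.60 to 6.99 in uninjured and 6.79 to 7.12 in trimebutine spheres. Sox2, a transcription factor of one kind of SKP, reached at most 5.61 on the 12 arrays and was not tested. Of 9 lymphocyte markers 8 were above the median on none of the 6 arrays, and of 17 macrophage and leukocyte markers 6 were, the common leukocyte antigen gene Ptprc among them at 5.28 or less. The macrophage markers Cd68, Lyz2 and Cx3cr1 were above the median on all 6 arrays. The arrays were not equally alike. On the first principal component, which carried 43.8% of the variance over 12 arrays, uninjured replicates 1 and 2 lay at 27.7 and 24.6 but replicate 3 at -7.45, and the trimebutine arrays lay at 10.8, 17.6 and 19.3. Replicate 1 of both groups had a lower median (6.61 and 6.62) than the other 4 arrays (6.70 to 6.73). Replicate 1 of wound alprostadil was also low (6.57), while replicate 1 of wound vehicle was not (6.73). Because spheres were measured in bulk, fewer cells of a type and less RNA per cell cannot be told apart.

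After trimebutine treatment of the wound 13 genes were higher and 13 lower than in uninjured spheres by limma's moderated test at an adjusted p under 0.05. That is 0.198% of the genes tested, 0.0988% in each direction. Collagenases (Mmp1a, Mmp1b), a basement membrane collagen (Col18a1) and the transcription factors Bcl11b and Zic1 fell. The matrix protein Spon2, the cell surface receptor Adgrd1, the phosphodiesterase Pde3b and the transcription factors Tbx5, Gata6, Ebf2 and Nr2f2 rose. The differences of the 26 genes ran from 0.49 to 2.71 log2 units in size, and 20 exceeded 1 log2 unit. Arrays of the groups did not overlap for any of these 26 genes. Over all tested genes the arrays did not overlap for 13.7% (7.09% higher and 6.61% lower), so that separation of the arrays alone is common here. Without adjustment, 938 genes had a p under 0.05, which is 7.13% of those tested (3.53% higher and 3.6% lower). Differences lay above 0 for 51.1% of genes and below 0 for 48.9%, with a median of 0.0036. Just inside the threshold lay Cdc42ep2, Nr2f2 and Thrb, each with an adjusted p of 0.0485. Just outside lay Gm20756, a predicted gene (-2.78 ± 0.46, adjusted p = 0.0506), Pcdhb15 (0.77 ± 0.13, adjusted p = 0.0652) and Osbpl6 (1.23 ± 0.21, adjusted p = 0.0653).

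**Figure D1:**
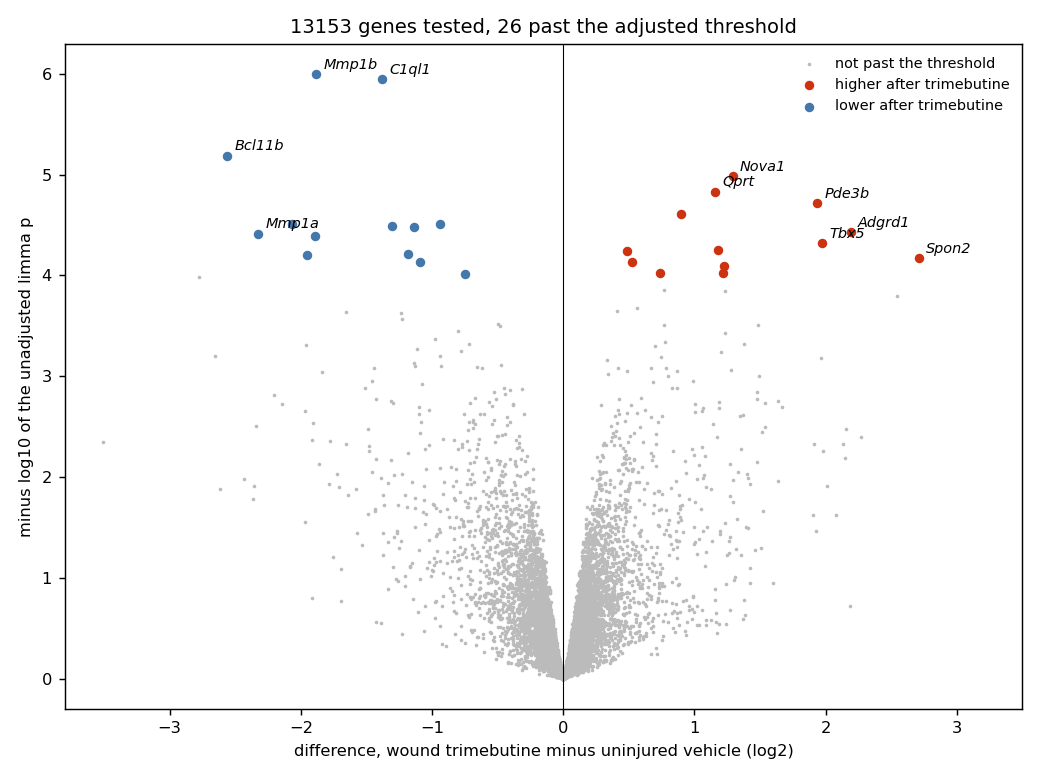
Each point is 1 of 13153 genes, with the log2 difference of wound trimebutine minus uninjured vehicle on the x axis and minus log10 of limma's unadjusted p on the y axis. Red and blue points are the 13 higher and 13 lower genes past the adjusted threshold, and Mmp1b and C1ql1 lie at the top on the lower side.

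The count rests on single arrays. Without uninjured vehicle replicate 1, uninjured vehicle replicate 2 or wound trimebutine replicate 2, limma called 0 genes, with 691, 705 and 623 genes at an unadjusted p under 0.05. The count was 3 without wound trimebutine replicate 3, 10 without uninjured vehicle replicate 3 and 17 without wound trimebutine replicate 1. The other groups enter through the shared estimate of spread. Leaving out replicate 1 of wound vehicle gave 2 genes, and leaving out replicates 1 and 2 of wound alprostadil in turn gave 6 and 12. In each of the 12 fits that left out an array, the 26 genes kept their sign and an unadjusted p under 0.05. The sign was bound to stay, since the arrays of the groups did not overlap for these genes. They were picked for a small p on the same arrays, so the kept p is no independent support. Mmp1b and C1ql1 passed the adjusted threshold in 9 of these 12 fits, Bcl11b and Nova1 in 7, and Adam19 in 0.

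**Figure D2:**
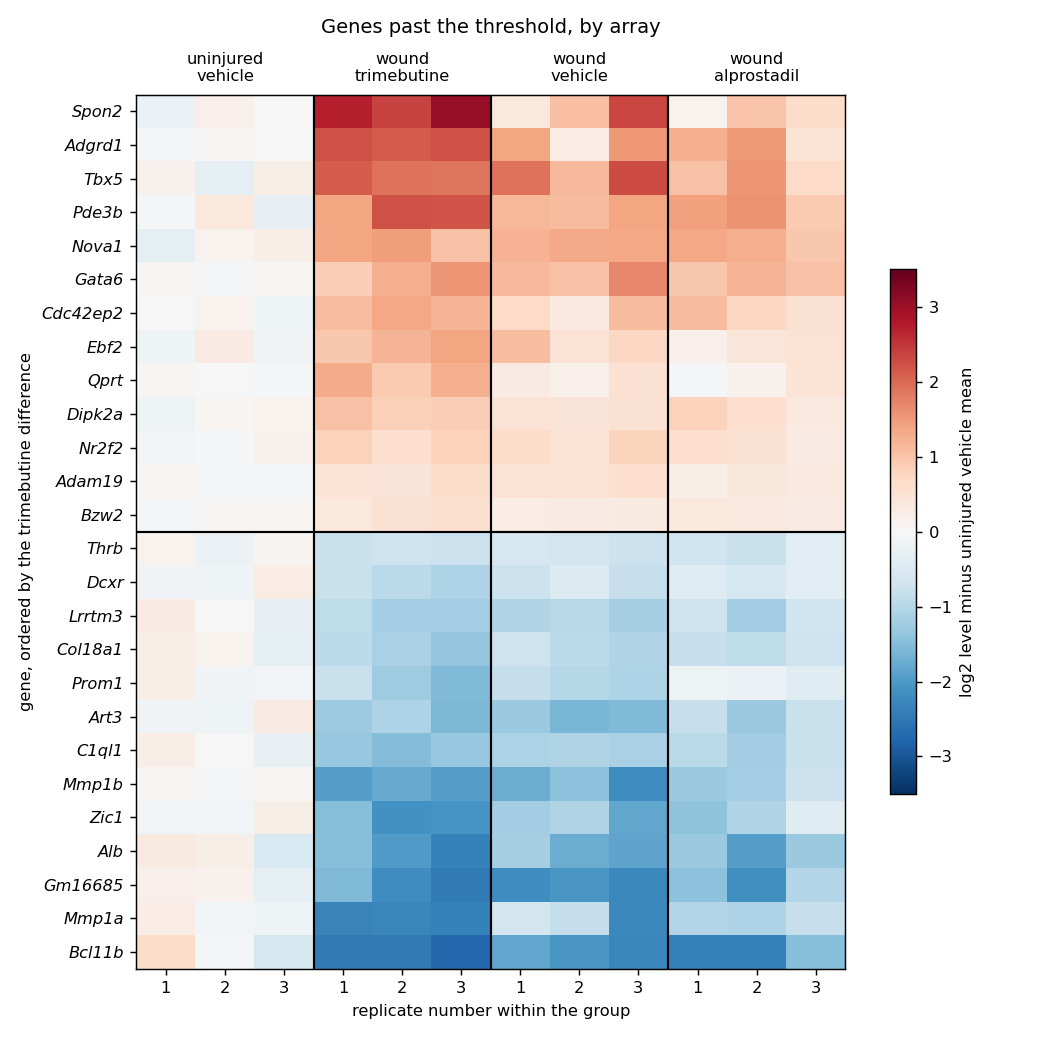
Rows are the 26 genes past the threshold and columns the 12 arrays, with colour giving the log2 level minus the mean of the 3 uninjured vehicle arrays. Genes above the horizontal line were higher in wound trimebutine (Spon2 at the top, 2.71) and genes below it lower (Bcl11b at the bottom, -2.56), and the wound vehicle and wound alprostadil arrays are drawn beside them.

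The collagenase genes Mmp1a and Mmp1b were lower in spheres of trimebutine-treated wounds than in uninjured spheres. Mmp1a and Mmp1b encode the interstitial collagenases of the mouse and lie in the same run of metalloproteinase genes on chromosome 9. The sequences before their starts are shown because both genes fell and are known as paralogs, with Mmp3 (stromelysin), which lies between them and did not pass, as a comparison. Each is the 150 bases upstream of the RefSeq start in GRCm38.p6, 5′ to 3′ on the strand of the gene. Capitals mark TGANTCA, the motif of the transcription factor AP-1. They also mark TATAAA, a common core promoter element.
Mmp1a, chr9:7463991-7464140, plus strand: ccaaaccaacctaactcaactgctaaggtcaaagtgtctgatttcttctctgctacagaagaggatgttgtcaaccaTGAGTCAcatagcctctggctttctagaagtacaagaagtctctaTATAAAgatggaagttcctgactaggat
Mmp1b, chr9:7388027-7388176, minus strand: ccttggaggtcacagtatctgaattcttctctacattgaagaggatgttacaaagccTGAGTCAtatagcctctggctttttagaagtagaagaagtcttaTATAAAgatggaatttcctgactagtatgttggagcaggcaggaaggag
Mmp3, chr9:7445672-7445821, plus strand: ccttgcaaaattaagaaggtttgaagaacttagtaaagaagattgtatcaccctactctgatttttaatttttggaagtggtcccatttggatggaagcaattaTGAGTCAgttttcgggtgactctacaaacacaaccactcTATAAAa
The Mmp1a and Mmp1b windows were identical in 65.3% of aligned columns (113 of 173), against 45.7% for Mmp1a and Mmp3. Each of the 3 windows held both motifs, at differing positions. Counted from the RefSeq start, TATAAA began at -28 in Mmp1a, -49 in Mmp1b and -7 in Mmp3. TGANTCA began at -73, -93 and -46. Over 32851 windows of the same length, read on both strands, 4.24% held TGANTCA and 7.57% held TATAAA. Among the 26 genes that passed, 18 had a window, of which 4 held TGANTCA (Adam19, Mmp1a, Mmp1b and Prom1) and 3 held TATAAA (Art3, Mmp1a and Mmp1b). A gene was counted when any of its windows matched, while the percentages count windows, so these shares are not like for like. A match describes letters only and shows no binding.

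Mmp1b was 7.83, 7.73 and 7.84 log2 units on uninjured replicates 1 to 3 and 5.86, 6.03 and 5.86 on trimebutine replicates 1 to 3. All uninjured arrays were well above the array medians and all trimebutine arrays below them. The difference was -1.88 ± 0.18 (SE, adjusted p = 0.00745, limma). No background level was used here, so for a gene with a group at or below the array medians the difference is given on the scale of the deposited log2 values, with no fold. Mmp1a read 11.32, 10.96 and 10.90 in uninjured and 8.72, 8.79 and 8.69 in trimebutine spheres. Its difference was -2.33 ± 0.34 (5.01-fold lower, adjusted p = 0.0385). The 3 trimebutine values lie close together, far from the uninjured ones. The genes are known as paralogs, so the probe sets may share signal. The windows printed above hold no transcript sequence and do not bear on that.

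The neighbours of these collagenases on chromosome 9 were described for their place after their values were seen. In chromosomal order they are Mmp13, Mmp12, Mmp1b, Mmp3, Mmp1a, Mmp10, Mmp8, Mmp27, Mmp20 and Mmp7, of which Mmp20 was too dim to be tested. Mmp13, a further collagenase, differed by -1.39 ± 0.44 and Mmp8, the neutrophil collagenase, by -1.69 ± 0.88, without passing (adjusted p = 0.438 and 0.795). Mmp3 differed by -0.34 ± 0.10 (adjusted p = 0.337), Mmp10 by -0.83 ± 0.87 and Mmp27 by -0.54 ± 0.35. Mmp12 (0.07 ± 0.49) and Mmp7 (-0.03 ± 0.27) overlapped between the groups, as did Mmp10. Of 39 tested metalloproteinases and inhibitors 2 fell and 1 rose, against 0.0988% of all tested genes in each direction. The list median was -0.08 against 0.0036 for all tested genes (-0.15 without uninjured vehicle replicate 3 and -0.04 without uninjured vehicle replicate 1). The member that rose was Adam19 (meltrin beta), a membrane protease that sheds growth factors. Adam19 was 10.24, 10.13 and 10.13 in uninjured and 10.63, 10.63 and 10.80 in trimebutine spheres, a narrow but separated shift of 0.52 ± 0.08 (1.44-fold, adjusted p = 0.0443).

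Among structural matrix genes the collagen Col18a1 fell and Spon2 rose. Col18a1 encodes collagen XVIII of basement membranes, whose end fragment is endostatin. It was 10.96, 10.84 and 10.37 on the uninjured arrays and 9.80, 9.59 and 9.37 on the trimebutine arrays, with uninjured replicate 3 the closest to the trimebutine range. The level fell by 1.14 on the log2 scale (SE 0.16, adjusted p = 0.0385). Col18a1 was the only 1 of 31 tested collagen chains to pass, and the list median was -0.05, which became 0.02 without uninjured vehicle replicate 1. Col15a1, the related multiplexin collagen, lay the other way at 2.15 ± 0.63 without passing (adjusted p = 0.375). Its values were 8.44, 9.28 and 8.73 in uninjured and 10.40, 10.85 and 11.64 in trimebutine spheres, which do not overlap. Col1a1 and Col3a1, the main fibrillar chains, differed by 0.27 ± 0.31 and 0.23 ± 0.47.

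Spon2 (spondin 2, or mindin), a secreted matrix protein that also binds microbial surfaces, had the largest difference of the genes that passed. Uninjured arrays read 6.60, 6.99 and 6.81 and trimebutine arrays 9.54, 9.17 and 9.84. The uninjured values lie close to the array medians and the trimebutine values far above them. The difference was 2.71 ± 0.42 (adjusted p = 0.0441). Spon2 was the only 1 of 22 tested thrombospondin, tenascin and tendon genes to pass. Arrays did not overlap for 2 higher and 6 lower members, against 7.09% and 6.61% of all tested genes. Among the lower members were Smoc2, a secreted calcium-binding matrix protein (-2.34 ± 0.61, adjusted p = 0.283), and Tnxb, tenascin X (-1.48 ± 0.42, adjusted p = 0.334). The list median of 0.04 became -0.10 without uninjured vehicle replicate 3.

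Other matrix lists held no gene that passed. Small leucine-rich proteoglycans, which coat collagen fibrils, had a median of 0.24 over 10 members, with Prelp at 1.40 ± 0.44 and Fmod (fibromodulin) at 1.93 ± 0.79. The median was 0.01 with array weights, 0.11 without wound trimebutine replicate 3 and 0.42 without uninjured vehicle replicate 2. Elastic fibre and cross-linking genes had a median of 0.17, and 18 of 25 lay above 0. This median was 0.08 without uninjured vehicle replicate 3 and 0.26 without wound trimebutine replicate 1. Plod2, a collagen lysyl hydroxylase, had the smallest p among them, at 0.59 ± 0.14 (adjusted p = 0.239). Contractile genes had 21 of 29 members above 0 and a median of 0.07, which was 0.0011 without uninjured vehicle replicate 3 and 0.13 without uninjured vehicle replicate 1. Acta2, the smooth muscle actin of myofibroblasts, was 8.75, 8.83 and 8.56 in uninjured and 10.16, 9.81 and 10.14 in trimebutine spheres. All trimebutine arrays lay above all uninjured arrays. The difference of 1.32 ± 0.51 did not pass in the fit over the 4 groups (adjusted p = 0.594), and it passed in 2 of 24 alternatives. The SD of Acta2 was 0.14 in uninjured and 0.20 in trimebutine spheres, but 1.19 in wound vehicle and 0.70 in wound alprostadil spheres. Among CCN and YAP target genes Ccn2 (connective tissue growth factor) differed by 1.06 ± 0.43 and Ajuba, a LIM protein of the Hippo pathway, by 0.46 ± 0.14 (adjusted p = 0.637 and 0.375).

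Transcription factors made up 7 of the 26 genes. Bcl11b (Ctip2), a zinc finger factor of T cells, neurons and skin, had the largest measured difference of the genes that fell. It read 9.44, 8.72 and 8.22 on the uninjured arrays and 6.31, 6.32 and 6.06 on the trimebutine arrays. The trimebutine values all lie below the array medians, while uninjured replicates spread over more than 1 log2 unit. The difference was -2.56 ± 0.31 (adjusted p = 0.0285). Zic1, a zinc finger factor of dorsal mesoderm and neural tissue, read 10.62, 10.61 and 10.92 in uninjured and 9.22, 8.61 and 8.65 in trimebutine spheres. Trimebutine replicate 1 was the highest of its group and still more than 1 unit below the uninjured arrays. The difference was -1.89 ± 0.28 (3.70-fold, adjusted p = 0.0385). Its neighbour and relative Zic4 differed by -0.69 ± 0.18 without passing (adjusted p = 0.273). Thrb, the thyroid hormone receptor beta, read 8.38, 8.07 and 8.37 against 7.50, 7.56 and 7.52, and fell by 0.75 log2 units (SE 0.12, adjusted p = 0.0485).

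The factors that rose are regulators of limb, heart, vessel and fat development. Tbx5, a T-box factor of forelimb and heart, was 6.48, 5.995 and 6.53 in uninjured and 8.47, 8.24 and 8.22 in trimebutine spheres. All uninjured values were below the array medians. The difference was 1.97 ± 0.29 (adjusted p = 0.0419). Gata6, a zinc finger factor of heart and endoderm, read 8.75, 8.64 and 8.76 against 9.57, 9.999 and 10.26 (1.23 ± 0.20, adjusted p = 0.0457). Here the uninjured arrays agree closely and the trimebutine arrays are spread. Nr2f2 (COUP-TFII), an orphan nuclear receptor of veins and mesenchyme, read 7.76, 7.79 and 8.02 against 8.66, 8.45 and 8.67 (0.74 ± 0.12, adjusted p = 0.0485). Ebf2, a factor of brown and beige fat precursors, read 6.76, 7.20 and 6.80 against 7.88, 8.12 and 8.32 (1.18 ± 0.18, adjusted p = 0.0434). Of 24 tested GATA, Bcl11, COUP-TF, Prdm and Fox factors 3 rose and 1 fell, and of 27 tested T-box, Lim and other positional factors 1 rose and 1 fell. Over all tested genes 0.0988% passed in each direction. The medians of the 2 lists were 0.04 (0.12 without uninjured vehicle replicate 3) and -0.02 (0.08 without wound trimebutine replicate 2). Both lists were drawn up with results of these data known, so their counts are no independent support.

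**Figure D3:**
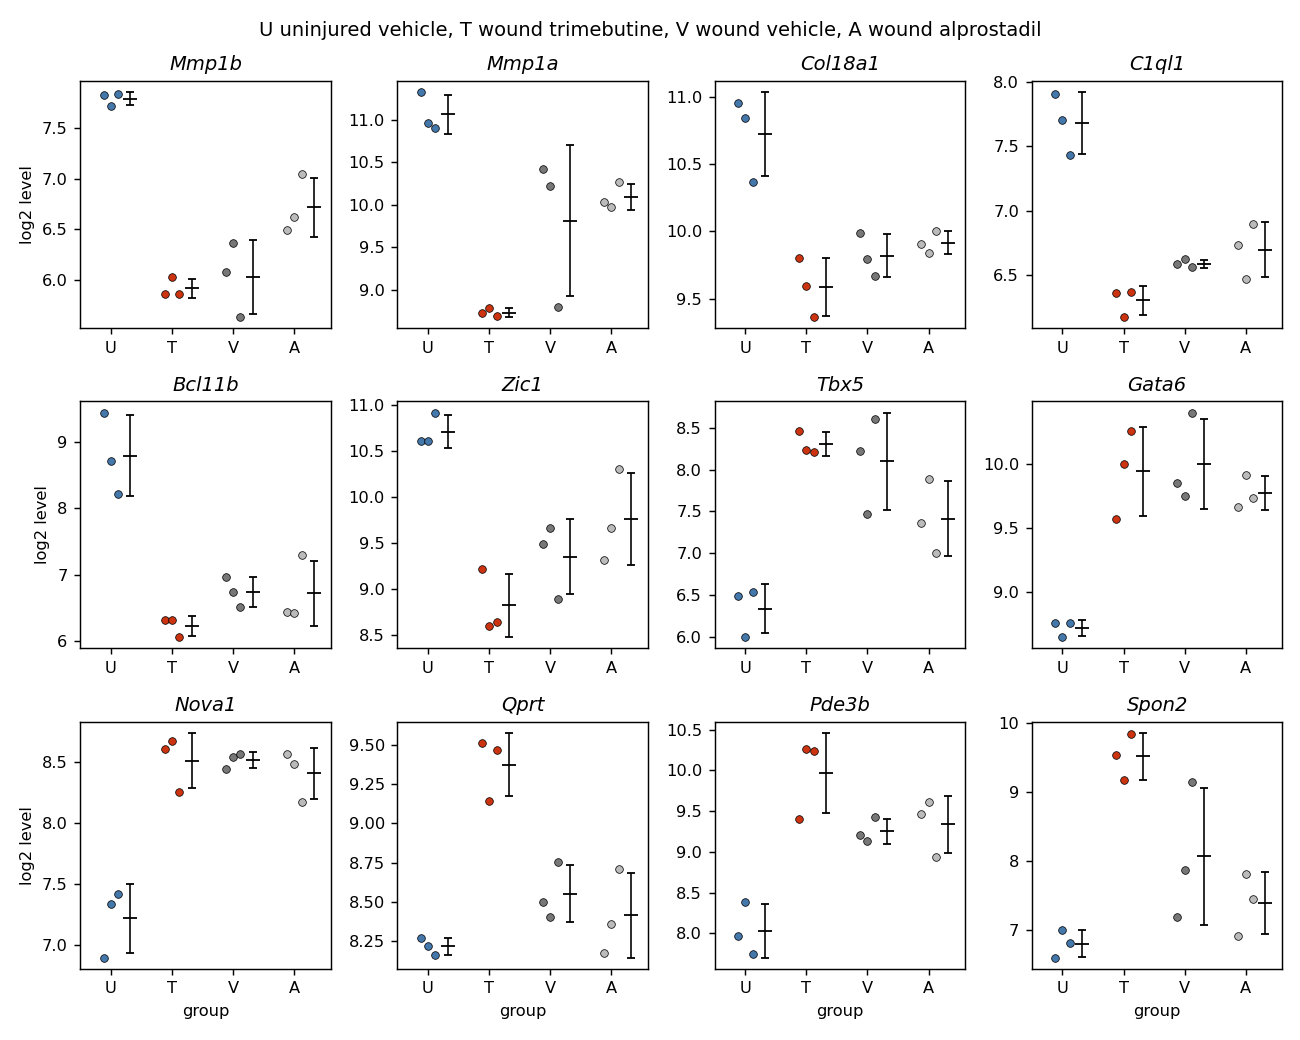
Each panel gives the log2 level (y axis) of 1 gene on the 3 arrays of each of the 4 groups (x axis), as points, with the mean and SD as a bar beside them. For all 12 genes the uninjured vehicle and wound trimebutine points do not overlap, and the y axes differ between panels.

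Hox genes, which record position along the body axis, held no gene that passed. Of 36 on the array 21 were tested, and limma gave 0 at the adjusted threshold. At an unadjusted p under 0.05 there were 10, against 7.13% of all tested genes. Arrays did not overlap for 4 higher and 6 lower members, against 7.09% and 6.61% of all tested genes. The list was chosen with earlier results of these data known, so its counts are no independent support. Signs were mixed within the B and C clusters. In the A cluster Hoxa4 (-0.30 ± 0.12), Hoxa5 (-0.65 ± 0.19), Hoxa6 (-0.53 ± 0.13) and Hoxa7 (-0.71 ± 0.17) had negative differences. In the B cluster Hoxb2 (0.42 ± 0.10), Hoxb3 (0.56 ± 0.14), Hoxb4 (0.51 ± 0.18) and Hoxb5 (0.63 ± 0.28) had positive ones, while Hoxb9 lay at -0.37 ± 0.33. In the C cluster Hoxc9 (-0.66 ± 0.14) and Hoxc10 (-0.78 ± 0.16) lay below 0, and Hoxc4 (0.28 ± 0.15), Hoxc6 (0.19 ± 0.15) and Hoxc8 (0.26 ± 0.22) above it. Hoxc10 came nearest to the threshold with an adjusted p of 0.151. It read 7.67, 7.36 and 6.99 in uninjured and 6.74, 6.42 and 6.53 in trimebutine spheres, so that uninjured replicate 3 was within 0.3 of the trimebutine range. The remaining 11 tested members overlapped between the groups. Among them Hoxb6 (0.64 ± 0.40) and Hoxb7 (0.40 ± 0.28) lay above 0. Hoxd3 (0.19 ± 0.17), Hoxd10 (0.19 ± 0.11) and Hoxd8 (0.08 ± 0.15) lay nearer to 0, as did Hoxa13 (-0.04 ± 0.12) and Hoxc13 (-0.03 ± 0.15).

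**Figure D4:**
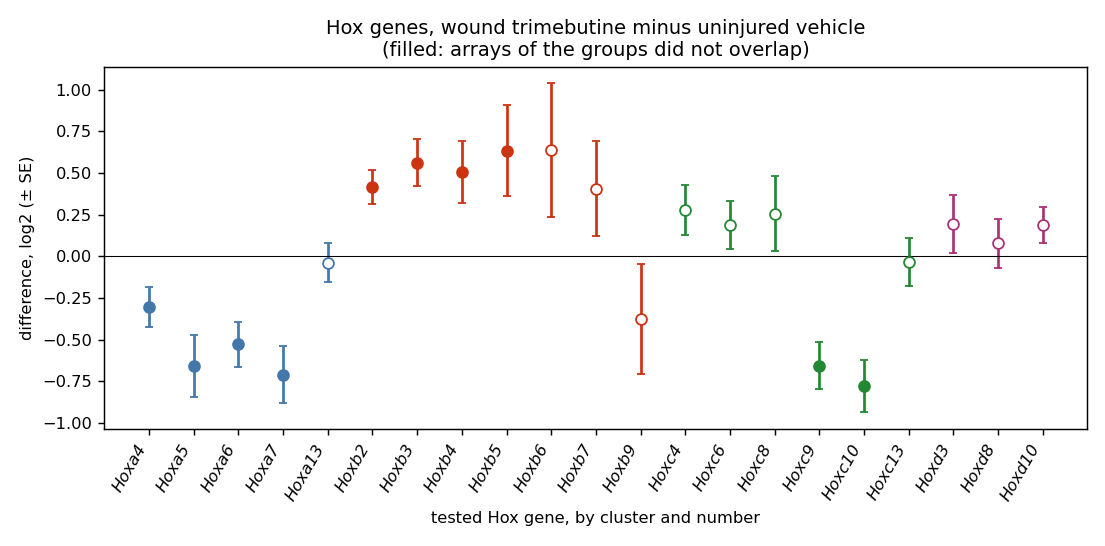
The log2 difference of wound trimebutine minus uninjured vehicle (y axis, bars are the SE of the limma model) is drawn for each of the 21 tested Hox genes (x axis, coloured by cluster). Filled points are the 10 genes whose arrays did not overlap, with Hoxa4 to Hoxa7 below 0 and Hoxb2 to Hoxb5 above 0, and none passed the adjusted threshold.

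Enzymes of metabolism and second messengers were among the genes that rose. Pde3b, a phosphodiesterase that breaks down cyclic AMP downstream of insulin, read 7.97, 8.39 and 7.74 in uninjured and 9.40, 10.27 and 10.23 in trimebutine spheres. Trimebutine replicate 1 was the lowest of its group and lay 1 log2 unit above the highest uninjured array. The difference was 1.94 ± 0.26 (3.82-fold, adjusted p = 0.0385). It was the only 1 of 35 tested prostaglandin and cyclic AMP genes to pass. Pde2a, another phosphodiesterase, differed by -1.02 ± 0.29 and Ptges, the inducible prostaglandin E synthase, by -0.44 ± 0.15 (adjusted p = 0.328 and 0.496). The list median was 0.03, and 0.00025 without uninjured vehicle replicate 2. Qprt makes nicotinic acid mononucleotide from quinolinate in the synthesis of NAD from tryptophan. It read 8.27, 8.22 and 8.16 against 9.51, 9.14 and 9.46, with little spread among uninjured arrays, a rise of 1.16 ± 0.15 (2.23-fold, adjusted p = 0.0385). Of 15 tested NAD synthesis enzymes it was the only member to pass, and the list median was -0.12. Dcxr, a carbonyl and xylulose reductase, went down from 9.86, 9.84 and 10.24 to 9.19, 9.04 and 8.89 (-0.94 ± 0.13, adjusted p = 0.0385).

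Receptors and regulators of the cell surface, cytoskeleton and translation also passed. Adgrd1, an adhesion G protein-coupled receptor, read 6.08, 6.17 and 6.11 in uninjured spheres, below the array medians, and 8.36, 8.23 and 8.35 in trimebutine spheres. Both groups were tight, and the rise was 2.19 ± 0.32 on the log2 scale (adjusted p = 0.0385). Dipk2a, a secreted kinase-like protein, read 9.24, 9.48 and 9.55 against 10.44, 10.26 and 10.27 (0.90 ± 0.12, adjusted p = 0.0385). Cdc42ep2, an effector of the small GTPase Cdc42 that shapes actin, read 7.91, 8.01 and 7.75 against 8.98, 9.26 and 9.08 (1.21 ± 0.20, adjusted p = 0.0485). Bzw2, a regulator of translation initiation, moved least of all genes that passed, from 9.59, 9.68 and 9.68 to 10.02, 10.17 and 10.22 (0.49 ± 0.07, 1.40-fold, adjusted p = 0.0434). Its arrays were separate and lay close together within each group.

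Of 3 genes that passed and are known from neurons, grouped so after their values were seen, Nova1 rose and C1ql1 and Lrrtm3 fell. Nova1, a splicing regulator of neurons, read 6.90, 7.34 and 7.42 on the uninjured arrays and 8.61, 8.68 and 8.25 on the trimebutine arrays (1.29 ± 0.16, 2.45-fold, adjusted p = 0.034). C1ql1, a secreted protein with a C1q domain that organises synapses, fell from 7.91, 7.71 and 7.43 to 6.36, 6.17 and 6.37, the latter below the array medians (-1.38 ± 0.14, adjusted p = 0.00745). Lrrtm3, a synaptic adhesion protein, fell from 8.74, 8.47 and 8.17 to 7.57, 7.26 and 7.28 (-1.09 ± 0.17, adjusted p = 0.0443). Of 24 tested Schwann cell and neural genes Nova1 alone passed, and 16 lay above 0. The median was 0.10, and 0.21 without uninjured vehicle replicate 2. Tubb3, a neuronal tubulin (0.99 ± 0.22, adjusted p = 0.199), and Stmn2, a microtubule regulator (1.91 ± 0.53, adjusted p = 0.328), did not pass. Of 7 Schwann cell markers on the array, S100b read 6.01 to 6.70 in uninjured and 7.18 to 8.30 in trimebutine spheres, while Sox10 (6.67 to 7.21 and 6.49 to 6.88) and Cdh19 (6.68 to 7.55 and 6.52 to 7.41) overlapped. The mean level of the marker list was 6.98 to 7.45 in uninjured and 7.27 to 7.54 in trimebutine spheres, with Mbp at 6.67 or less. Their part in these differences was not tested.

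Of the markers of SKPs and the dermal papilla, 1 fell. Prom1 (CD133), a membrane protein of dermal papilla cells, read 8.23, 7.85 and 7.89 in uninjured and 7.22, 6.74 and 6.45 in trimebutine spheres, which do not overlap. It fell by 1.19 log2 units (SE 0.18, adjusted p = 0.0434). Of 34 tested SKP and dermal papilla genes it was the only member to pass. At an unadjusted p under 0.05 there were 11 lower and 4 higher members, against 3.6% and 3.53% of all tested genes. Trps1, a GATA-type factor of hair follicle mesenchyme, differed by -0.53 ± 0.12, Twist2, a dermal bHLH factor, by -0.61 ± 0.15, and Bmp4, a ligand of the papilla, by -1.08 ± 0.28 (adjusted p = 0.224, 0.253 and 0.273). The list median was -0.02, and -0.25 without uninjured vehicle replicate 3. Among markers of papillary, reticular and adventitial fibroblasts 0 of 26 passed in limma's test. An unadjusted p under 0.05 was found for 5, against 7.13% of all tested genes. Plac8 (1.18 ± 0.29), Cygb, a globin of stellate cells and fibroblasts (1.17 ± 0.32), and Dlk1, a secreted Notch-like protein of reticular precursors (2.13 ± 0.59), had the smallest p on the higher side.

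The last 3 genes that passed belong to no group above. Art3, a membrane-anchored member of the ADP-ribosyltransferase family, read 9.08, 9.02 and 9.48 in uninjured and 7.93, 8.12 and 7.61 in trimebutine spheres (-1.31 ± 0.19, 2.47-fold lower, adjusted p = 0.0385). Alb (albumin), known as a liver protein, read 8.97, 8.88 and 8.12 against 7.16, 6.67 and 6.29 (-1.95 ± 0.30, adjusted p = 0.0434). Its uninjured replicate 3 was the closest to the trimebutine arrays. Gm16685, a long noncoding RNA named after its values were seen, read 10.15, 10.12 and 9.68 against 8.43, 7.81 and 7.50 (-2.07 ± 0.29, adjusted p = 0.0385). It was the only predicted gene to pass.

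The chemokine and antigen presentation lists had the lowest medians of the 50 pathway lists. Of 39 tested chemokine, cytokine and NF-kB target genes 31 lay below 0 with a median of -0.34. None passed in limma's test, and 9 were lower and 0 higher at an unadjusted p under 0.05. Over all tested genes these shares were 3.6% lower and 3.53% higher. Lcn2 (lipocalin 2), which binds bacterial siderophores, came nearest. It read 11.70, 11.64 and 11.24 in uninjured and 10.48, 9.66 and 9.46 in trimebutine spheres (-1.66 ± 0.30, adjusted p = 0.0905). Cd40, a costimulatory receptor of the TNF receptor family, read 9.16, 8.72 and 9.39 against 8.02, 8.003 and 7.58 (-1.23 ± 0.23, adjusted p = 0.103). In both genes the arrays were separate, and trimebutine replicate 3 was the lowest. Birc3, an NF-kB induced inhibitor of apoptosis, differed by -0.47 ± 0.13 (adjusted p = 0.314).

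Antigen presentation genes had 18 of 20 members below 0 and a median of -0.30, and interferon-stimulated genes 30 of 33 below 0 and a median of -0.23. Neither list held a gene that passed. At an unadjusted p under 0.05 there were 4 and 0 members, against 7.13% of all tested genes. Psmb9, a subunit of the immunoproteasome, read 9.24, 9.34 and 9.11 in uninjured and 8.45, 8.70 and 8.40 in trimebutine spheres (-0.72 ± 0.20, adjusted p = 0.345). Erap1, which trims peptides for class I molecules, differed by -0.47 ± 0.15. H2-K1, a class I gene with near copies whose probes may share signal, differed by -0.23 ± 0.09. Oas3, an antiviral enzyme, had the smallest p of the interferon list, at -0.74 ± 0.35. Of 20 tested complement genes 15 lay below 0 with a median of -0.22, and the member that passed was C1ql1, which is related to C1q by its domain but is not known as a complement component. Cfb, complement factor B, differed by -1.13 ± 0.39 (adjusted p = 0.514). The medians of these 4 lists stayed below 0 in every alternative run. The antigen presentation median was -0.18 without uninjured vehicle replicate 1, and the interferon median -0.14 without wound trimebutine replicate 3. Mean levels of the macrophage and leukocyte markers were 6.63 to 7.05 in uninjured and 6.30 to 6.94 in trimebutine spheres, and 8 of 11 tested members lay below 0. Lyz2 (lysozyme) and Mpeg1 were lower but overlapped, Lyz2 at 8.46 to 10.74 and 7.05 to 9.54 (-1.43 ± 1.25) and Mpeg1 at 6.88 to 8.49 and 5.24 to 7.10 (-1.91 ± 1.26). Cd68 differed by 0.19 ± 0.90 and Csf1r by 0.12 ± 0.72, and Adgre1 read 5.92 or less on these 6 arrays. Csf1r read 6.589 to 6.774 in uninjured and 6.614 to 6.946 in trimebutine spheres. Cd68 read 7.949 to 8.612 and 8.105 to 8.835. The SEs pool the spread of all 4 groups, and wound alprostadil replicate 1 read 12.841 for Lyz2 and 11.475 for Mpeg1. The part of macrophages and leukocytes in the lower medians was not tested.

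**Figure D5:**
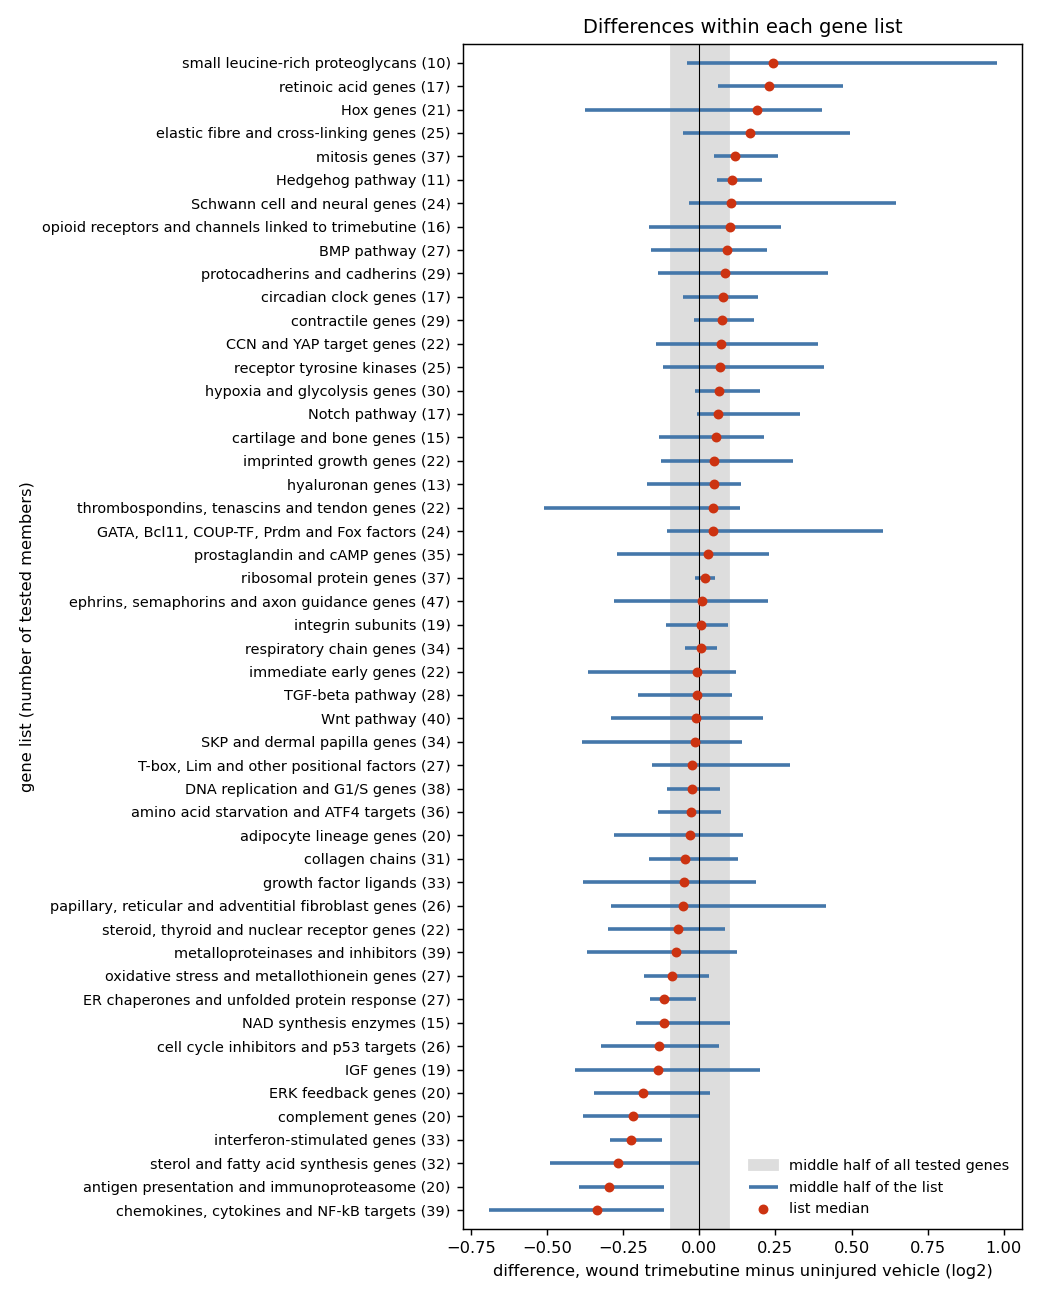
For each of 50 gene lists (y axis, with the number of tested members) the red point is the median and the blue line runs from the lower to the upper quartile of the log2 differences of wound trimebutine minus uninjured vehicle (x axis). Grey marks the quartiles of all 13153 tested genes (-0.09 to 0.10), and the chemokine (-0.34) and antigen presentation (-0.30) lists lie at the bottom.

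List medians depended on single arrays: of 50 pathway lists 44 had a median that moved by over 1.5 times or changed sign when 1 of the 12 arrays was left out, and 25 changed sign. The mitosis and unfolded protein lists changed sign with uninjured replicate 3. In each list most members lay on the same side of 0. For mitosis this was 34 of 37 tested genes above 0 (median 0.12), but 0 passed in limma's test and 0 had an unadjusted p under 0.05. The median was 0.41 without uninjured vehicle replicate 1 and -0.16 without uninjured vehicle replicate 3. Mki67, the proliferation marker, read 9.81, 8.99 and 8.07 in uninjured and 9.79, 8.97 and 9.19 in trimebutine spheres, with uninjured replicate 3 the lowest. Its difference was 0.36 ± 0.89. For DNA replication genes the median was -0.02, and -0.18 and 0.13 without uninjured vehicle replicates 3 and 1. Of 27 endoplasmic reticulum chaperones and unfolded protein response genes 23 were below 0 (median -0.12), and the median became 0.19 without uninjured vehicle replicate 3. Among sterol and fatty acid synthesis genes 24 of 32 were below 0. Their median of -0.27 ran from -0.62 without wound trimebutine replicate 1 to -0.07 without wound trimebutine replicate 3. Abca1, which exports cholesterol, was on the other side at 1.01 ± 0.24 (adjusted p = 0.244).

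Among cell cycle inhibitors and p53 targets 18 of 26 lay below 0 (median -0.13). At an unadjusted p under 0.05, 7 were lower and 2 higher, against 3.6% and 3.53% of all tested genes. The member with the smallest p was higher and the one with the largest difference lower. Cdkn1c (p57), an imprinted inhibitor of cyclin-dependent kinases, read 7.44, 7.91 and 7.79 in uninjured and 9.09, 8.93 and 8.83 in trimebutine spheres (1.23 ± 0.24, adjusted p = 0.12). Btg2, a p53 target that restrains division, read 10.26, 9.63 and 10.07 against 8.66, 8.70 and 8.28 (-1.44 ± 0.31, adjusted p = 0.169). Arrays were separate in both genes. Immediate early genes were balanced in number (11 above and 11 below 0), with Egr1 at -0.73 ± 0.26. ERK feedback genes had 14 of 20 below 0 and a median of -0.19, with the smallest p in Ier3 (-1.09 ± 0.29) and Phlda1 (-0.55 ± 0.19). Their median stayed below 0 in every alternative run and was -0.09 without uninjured vehicle replicate 3. Respiratory chain and ribosomal protein genes had medians of 0.01 and 0.02.

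Signalling pathways held large single differences that did not pass. In the BMP pathway Bmp5 differed by 1.96 ± 0.41 and Bmp4 by -1.08 ± 0.28 (adjusted p = 0.16 and 0.273), so that ligands lay on both sides. Id1, a BMP target, differed by 1.14 ± 0.29, and the list median was 0.09 (0.03 without uninjured vehicle replicate 2). In the TGF-beta pathway Itgb8, an integrin chain that activates latent TGF-beta, read 9.38, 9.32 and 9.44 in uninjured and 8.17, 8.38 and 8.18 in trimebutine spheres (-1.14 ± 0.24, adjusted p = 0.169). Each group was tight and they lay about 1 log2 unit apart. Inhbb, a subunit of activin, differed by -0.74 ± 0.20 and Eng (endoglin) by -0.94 ± 0.29. In the Wnt pathway the transcription factor Lef1 (-0.71 ± 0.21), the receptor Fzd7 (0.56 ± 0.18) and the ligand Wnt16 (-0.74 ± 0.24) had the smallest p in the list, whose median was -0.01. Notch2 differed by 0.47 ± 0.14 and the ligand Dll1 by -0.59 ± 0.20.

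Retinoic acid genes had 14 of 17 members above 0 and a median of 0.23, which stayed above 0 in every alternative run. Dhrs3, a retinaldehyde reductase that retinoic acid induces, read 8.56, 7.99 and 9.10 in uninjured and 9.94, 9.84 and 10.33 in trimebutine spheres (1.49 ± 0.28, adjusted p = 0.108). Rbp4, the retinol carrier, differed by 0.93 ± 0.28 and Aldh1a1, which makes retinoic acid, by 0.47 ± 0.16. Growth factor ligands lay on both sides, with Fgf7 (keratinocyte growth factor) at -1.34 ± 0.44, Ptn (pleiotrophin) at 2.01 ± 0.66 and Nrg1 (neuregulin 1) at -1.05 ± 0.39. Among receptor tyrosine kinases Tek (Tie2) differed by 0.80 ± 0.18 and Kit, the stem cell factor receptor, by 1.36 ± 0.38, and neither passed (adjusted p = 0.183 and 0.338). Both are markers of other cell types as well. Of 12 endothelial markers 7 were above the median on none of the 6 arrays, Pecam1 among them at 6.13 or less, and the mean level of that list was 6.20 to 6.38 in uninjured and 6.39 to 6.45 in trimebutine spheres. Cdh5 (VE-cadherin) lay the same way as Tek, at 6.41 to 7.52 in uninjured and 7.35 to 9.31 in trimebutine spheres (1.31 ± 0.72, overlapping), while Vwf (-0.29 ± 0.53) and Egfl7 (-0.15 ± 0.15) lay below 0. Of 8 mast cell markers 5 were above the median on none, Fcer1a among them at 5.25 or less, and the list's mean level was 5.72 to 6.42 and 5.85 to 6.99. Cpa3, a mast cell protease, was brighter at 6.93 to 9.16 and 6.85 to 9.67, and Tpsb2 (tryptase) read 6.51 to 7.25 and 6.29 to 8.10, both highest on trimebutine replicate 1. Their part in the values of Tek and Kit was not tested.

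The known targets of trimebutine were mostly dim or overlapping. The mu and kappa opioid receptor genes Oprm1 and Oprk1 reached at most 5.94 and 6.18 on the 12 arrays and were not tested. Of 16 tested opioid and channel genes limma called 0, with 2 at an unadjusted p under 0.05, against 7.13% of all tested genes. The list median was 0.10 (-0.01 without uninjured vehicle replicate 3). Cacna1c, the pore of the L-type calcium channel, differed by 0.09 ± 0.37. Scn7a, a sodium channel gene, read 8.01, 8.44 and 6.64 in uninjured and 9.81, 9.57 and 9.93 in trimebutine spheres, separate but with a low uninjured replicate 3 (2.08 ± 0.78, adjusted p = 0.568). Kcnmb1, a subunit of the large calcium-activated potassium channel, differed by -0.52 ± 0.20.

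Several large differences with separate arrays did not pass. Star, which carries cholesterol into mitochondria for steroid synthesis, read 7.03, 6.84 and 8.55 in uninjured and 9.87, 9.86 and 10.33 in trimebutine spheres (2.55 ± 0.44, adjusted p = 0.0707). Uninjured replicate 3 lay between the other uninjured arrays and the trimebutine arrays. The same array was the outlying member of its group for Slc40a1 (ferroportin, the iron exporter), at 7.37, 8.09 and 9.46 against 9.52, 10.60 and 11.27 (2.15 ± 0.57, adjusted p = 0.291). It was also so for Lvrn, a membrane aminopeptidase, at 9.42, 9.37 and 7.23 against 6.70, 5.98 and 5.38 (-2.65 ± 0.55, adjusted p = 0.158). Lilrb4a, an inhibitory receptor of myeloid cells, read 12.88, 12.38 and 12.71 against 11.84, 9.82 and 8.45, where the trimebutine arrays spread over more than 3 log2 units (-2.62 ± 0.87, adjusted p = 0.474). Cyp2f2, a cytochrome P450, differed by -2.44 ± 0.78 and Ifi209, an interferon-induced gene, by -2.36 ± 0.83. Tnfrsf11b (osteoprotegerin), a decoy receptor that blocks RANKL, read 9.09, 9.50 and 9.09 against 8.37, 7.88 and 7.69 (-1.24 ± 0.22, adjusted p = 0.0905).

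The wound vehicle and wound alprostadil groups were set against the same 3 uninjured arrays, so the values that follow share their controls and are given side by side only. With wound vehicle 6 genes passed (0.0456%), and 1709 had an unadjusted p under 0.05 (13%). With wound alprostadil limma called 0 genes (0%), and 954 had an unadjusted p under 0.05 (7.25%). All 26 genes that passed with trimebutine had the same sign with wound vehicle and with wound alprostadil. Of these 26, 5 also passed with wound vehicle and 0 with wound alprostadil. Mmp1b differed from uninjured by -1.88 with trimebutine, -1.78 with wound vehicle and -1.08 with alprostadil. For Mmp1a these differences were -2.33, -1.25 and -0.97, and for Bcl11b -2.56, -2.05 and -2.07. For Nova1 they were 1.29, 1.30 and 1.19, and for Gata6 1.23, 1.29 and 1.06. Spon2 had 2.71, 1.26 and 0.59, and Adgrd1 had 2.19, 1.05 and 1.07. Qprt had 1.16, 0.33 and 0.20, and Acta2 had 1.32, -0.14 and 0.15. The wound vehicle arrays were split. Replicates 1 to 3 read 7.93, 7.845 and 9.95 for Acta2, 7.18, 7.87 and 9.145 for Spon2, and 10.42, 10.22 and 8.80 for Mmp1a. Wound vehicle replicate 3 correlated best with wound trimebutine replicate 2 (r = 0.991). On the first principal component it lay at 13.9, and wound vehicle replicates 1 and 2 at -34.1 and -38.9.

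Whether a gene differed between the trimebutine and vehicle wounds was tested directly, without the uninjured arrays in the contrast. Limma called 0 of 13153 genes (0%), with 1240 at an unadjusted p under 0.05 (9.43%) and a smallest adjusted p of 0.528. Differences of trimebutine minus wound vehicle were 0.82 ± 0.15 for Qprt, 1.14 ± 0.32 for Adgrd1 and 1.45 ± 0.42 for Spon2. They were 0.72 ± 0.26 for Pde3b and -1.08 ± 0.34 for Mmp1a. Wound vehicle replicate 3 read 9.145 for Spon2 and 8.8 for Mmp1a, next to trimebutine replicate 2 (9.167 and 8.787). For Pde3b it read 9.423, above trimebutine replicate 1 (9.402). Adgrd1 read 7.501, 6.387 and 7.629 on vehicle replicates 1 to 3, all below the lowest trimebutine array (8.227). For Qprt the highest vehicle array (8.756) lay below the lowest trimebutine array (9.144). For Nova1 (-0.01 ± 0.16), Gata6 (-0.06 ± 0.20), Adam19 (-0.01 ± 0.08) and Mmp1b (-0.11 ± 0.18) the differences were smaller than their errors. A p that misses the threshold does not show that the groups were alike, and this comparison shares its trimebutine arrays with the results above.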

How the data were processed

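Total RNA of 12 SKP cultures was measured on Affymetrix Mouse Gene 2.0 ST arrays, with cDNA made from 400 ng per the labels' protocols. The deposited table holds log2 levels by probe set. The submitters' processing notes name RMA and the package oligo as the authors' tools, and no source used here gives a version or setting. Of 41345 probe sets, 23521 had 1 gene symbol, 1814 several and 16010 none in the platform annotation, and the brightest set of a symbol was kept. The number of arrays limits the precision, and no probe-level background was used here.

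A single fit in limma 3.58.1 (R 4.3.3) covered the 4 groups, with 8 residual degrees of freedom and no covariate. P-values are two-sided, moderated and adjusted by Benjamini-Hochberg over 13153 genes (threshold 0.05), and ± is the SE of the difference. P-values and SEs use the spread between isolates pooled over the 4 groups, so they can reflect groups outside the comparison. Groups came from the labels' treatment and title, and no 2 arrays held identical values (66 pairs). An exact permutation test of 3 against 3 arrays cannot go below p = 0.1 and was not used. Scripts were tested on simulated arrays.

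Named genes are the 15 with the smallest p and the 5 largest separated differences in each direction, without predicted genes, the 3 members with the smallest p of each of 50 pathway lists and 11 marker lists and any member that passed, a set of fixed genes and every tested Hox gene. Genes and lists were chosen with earlier results of these data known. Promoter windows are from RefSeq (GRCm38.p6), cut to 150 bases before the start. Alternatives were a replicate block, other filters, array weights, median centring, cyclic loess, probe set means, a trended and robust variance, fewer arrays, other thresholds and, added after seeing the data, all probe sets together. Figures used Python 3.11.15 and matplotlib 3.10.9.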

Additional observations from a re-analysis of the deposited data

Results flagged for a closer look

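When all 22186 probe sets above the filter were tested together, 1 probe set outside the main measurement passed the adjusted threshold of limma's test. It carries no gene symbol in the platform annotation and was lower in trimebutine-treated wounds than in uninjured spheres. There were 8379 tested probe sets with several symbols or none, and they enter no comparison above.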

How the results depend on the processing

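The 26 genes of the comparison kept their direction and an unadjusted p under 0.05 in every alternative in which they were tested. They were picked for a small p on the same arrays, which did not overlap, so this is no independent support. The number past the adjusted threshold moved. Filters on dim genes, trended and robust variance and a threshold of 0.1 kept it within 1.5 times, and so did the mean of probe sets (21 genes). It was 16 with cyclic loess (7 higher, 9 lower), 17 with median centring (8 higher, 9 lower), 15 with only the 6 arrays compared (9 higher, 6 lower) and 2 at a threshold of 0.01 (0 higher, 2 lower). Array weights gave 2171 (1118 higher, 1053 lower), and the cause was not tested. Without the 3 arrays of lowest median it was 0 (0 higher, 0 lower), with 1175 genes at an unadjusted p under 0.05 in limma. With all probe sets together, an alternative chosen after seeing the data, it was 4 (0 higher, 4 lower) among more tests. Leaving out each array in turn gave 0 to 27 genes (0 to 14 higher, 0 to 13 lower). Col3a1 reversed to -0.0046 with array weights. Mki67 ranged from -0.083 without uninjured vehicle replicate 3 to 0.79 without uninjured vehicle replicate 1.

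With the replicate number as a block, 10 genes passed (1 higher, 9 lower), 7 of them among the 26. The numbers were not used as pairs in the main fit. Deviations of same-numbered uninjured and trimebutine arrays correlated at 0.244, 0.234 and 0.00932, and only replicate 1 matched its own number best. Whether same-numbered arrays shared a preparation was not tested. Of 56 list medians 23 kept their sign in every alternative. The number of arrays limits the precision. Mmp1b, C1ql1 and Bcl11b were at or below the array median on all 3 trimebutine arrays, and Adgrd1 and Tbx5 on all 3 uninjured arrays.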
